A study of Mus musculus with 4 samples.

Results

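The genes described here are 7 genes of autophagy and of lysosome acidification in long-term haematopoietic stem cells (LT-HSCs), the rare marrow cells that sustain all blood lineages. They were chosen by name: the autophagy genes Rb1cc1, Atg9a, Atg16l1, Atg4b and Optn, and Atp6v1h and Atp6v1g3, which encode subunits of the lysosomal proton pump. They are 7 of the 4167 genes that could be read from the deposited table, which covers chromosome 1 and the start of chromosome 2. The LT-HSCs were sorted by flow cytometry from marrow of the tibia and femur. The mice were wild type (WT) or carried a conditional Atf4 knockout (ATF4 KO), and each genotype is represented by 2 libraries. Polyadenylated RNA was made into libraries by a method derived from Smart-seq2, which serves very small amounts of RNA. The labels do not say whether the libraries of a genotype came from separate animals, so that p-values measure at most the spread between these libraries, which may be technical. The Cre line, the age and the sex of the mice are not given in the sources used here. Atf4 itself lies outside the part of the table analysed, so its level could not serve as a check of the genotypes.

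In autophagy a double membrane closes around a portion of cytoplasm, and the resulting autophagosome fuses with a lysosome, whose acid hydrolases degrade the contents. A kinase complex and vesicles carrying ATG9 start the membrane, a conjugation machinery attaches ubiquitin-like ATG8 proteins to it, and cargo receptors tie the cargo to those proteins. The vacuolar ATPase (V-ATPase) pumps protons into the lysosome and so keeps its hydrolases active. Blood stem cells depend on autophagy to clear mitochondria and to remain quiescent, and ATF4, through which cells answer stress by changing transcription, is known to activate several autophagy genes in stressed cells. The question put to these libraries is how such genes are expressed in stem cells without ATF4.

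The libraries of the genotypes differed in depth so strongly that this bears on every value below. The deposited values are log2 values of a shrunken kind, from which read numbers could be recovered for most genes. The size factors, the relative depths by which reads are normalised, were 21.7 and 17.1 in WT and 0.0359 and 0.0372 in ATF4 KO. By these factors, and not by total reads, the WT libraries were 462 to 604 times as deep as the ATF4 KO libraries, and 1 ATF4 KO read stood for 27.8 or 26.9 normalised reads. Of the LT-HSC markers in the table, Gfi1b was at 6.02 and 6.0 (log2 value) in WT and Slamf1, which encodes CD150, at 3.76 and 3.33. Neither had a read in the ATF4 KO libraries. From the WT levels and the size factors, 5.27 reads of Gfi1b and 1.0 of Slamf1 were expected over that pair. Cd34, of which LT-HSCs carry little on their surface, was the highest of the 4 list genes in the table, at 9.44 and 9.50 in WT and 8.30 and 8.17 in ATF4 KO. Cd48, which LT-HSCs should lack, was at 6.49 and 7.11 in WT. Of the myeloid markers, Fcer1g was higher in both ATF4 KO libraries (14.31 and 13.73) than in WT (10.89 in both), and Fcgr3 overlapped between the genotypes (4.83 and 5.21 in WT, 5.61 and 3.04 in ATF4 KO). The reads of Fcer1g were not recovered, Fcgr2b and Cxcr2 had 0 ATF4 KO reads, and the part of myeloid RNA in the results below was not tested. In RNA from bulk cells, fewer cells of a type and less RNA per cell cannot be told apart.

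All 6 of the expressed genes were measured with at least 304 reads in each WT library. Of neighbours in their order there, only Atg9a and Atg16l1 had ranges that overlapped. Compared per kilobase of exon, Atp6v1h, the regulatory H subunit of the cytosolic V1 part of the proton pump, stood highest. It had 1942 and 1553 reads in WT 1 and WT 2, or 9.18 and 9.29 normalised reads per kb. Atg4b, the protease that trims ATG8 proteins before and after their use, followed with 1619 and 1281 reads, or 9.0 and 9.02 normalised reads per kb. The pair differed little, although their ranges over the 2 libraries did not overlap. Counting error was not set against so small a gap, so their order is not established. The lengths count every annotated exon of a gene, whether or not it was part of the RNA here. They were 9.746 kb for Atp6v1h and 14.69 kb for Rb1cc1, but 3.753 kb for Optn. Every order per kb, here and below, depends on these lengths.

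Optn, which encodes optineurin, a cargo receptor that brings ubiquitin-tagged mitochondria and bacteria to the autophagosome, was at 4.76 and 5.34 normalised reads per kb (388 and 344 reads). Atg9a, the lipid scramblase whose vesicles seed the autophagosome, was at 3.56 and 3.29 (446 and 325 reads). Atg16l1, the scaffold that directs ATG8 conjugation to the right membrane, was at 3.41 and 3.08 (713 and 509 reads). The ranges of Atg9a and Atg16l1 overlapped, so their order is not established. Rb1cc1, which encodes FIP200, the scaffold of the kinase complex that starts autophagy, was lowest at 1.46 and 1.21 normalised reads per kb (467 and 304 reads), below Atg16l1 in both libraries.

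**Figure D1:**
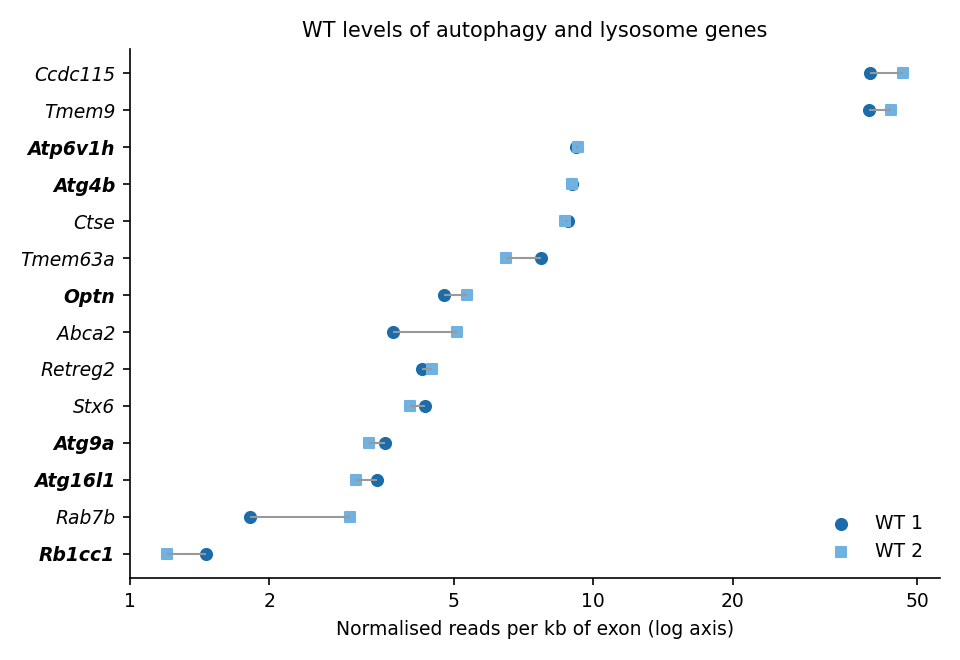
Normalised reads per kb of exon (log axis) in WT 1 (circles) and WT 2 (squares) for the 14 autophagy and lysosome genes with recovered WT reads, the chosen genes in bold; grey lines join the 2 libraries. Atp6v1h and Atg4b lie together near 9, Optn, Atg9a and Atg16l1 between 3.08 and 5.34, and Rb1cc1 lowest.

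Between the WT libraries the genes varied little. The normalised reads of Atg4b and Atp6v1h differed between WT 1 and WT 2 by no more than 1.01-fold, those of Atg9a by 1.08-fold, Atg16l1 by 1.11-fold, Optn by 1.12-fold and Rb1cc1 by 1.21-fold. Over the 584 tested genes with more than 5 normalised reads in both WT libraries, the median fold between the 2 was 1.13. Only Rb1cc1 of the 6 lay above that median, and below the 90th percentile of 1.35. On the deposited log2 scale, 83.2% of the 1199 tested genes had a lower WT mean than Atp6v1h and 81.7% a lower one than Atg4b. The share was 66.4% for Atg16l1, 57.8% for Rb1cc1, 55.9% for Atg9a and 54.9% for Optn.

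Atp6v1g3, the G3 subunit of the pump, a form known mainly from kidney, was listed at exactly 0 in all 4 libraries, as were 2239 of the 4167 genes. By the equation that the deposited values follow, a gene with a read in any library is not at 0 in all of them, so this is read as 0 reads. A count of 0 allows up to 3 reads over the pair of WT libraries, or 0.0409 normalised reads per kb. Per kb, Atp6v1h was thus at least 226-fold higher than Atp6v1g3 in WT. This limit covers counting error only.

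The annotation (GENCODE M21 on GRCm38) places 6 of the genes on chromosome 1. They are Atp6v1h (5070018 to 5162529, plus strand), Rb1cc1 (6206197 to 6276648, plus strand), Atg9a (75180860 to 75192196, minus strand), Atg16l1 (87755870 to 87792428, plus strand), Atg4b (93751500 to 93790610, plus strand) and Atp6v1g3 (138273738 to 138289462, plus strand). Optn lies on chromosome 2 (5020642 to 5064051, minus strand). All 7 are protein-coding genes. Atg9a shares 31.8% of its exon bases with Gm29253, a transcript of the same strand that was listed at 0 in all 4 libraries. Whether reads in the shared exons were counted for Atg9a is not stated in the sources used here. Its level may thus be understated, and its place below Optn in WT is uncertain. Overlaps with genes of the opposite strand covered 3.8% of the exon bases of Rb1cc1, 1.95% of Optn, 1.30% of Atp6v1h and 0.798% of Atg9a, and no exon base of Atg16l1, Atg4b or Atp6v1g3 was shared with another gene.

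RefSeq promoter sequences (GRCm38.p6) were matched for 4 of the 7 genes, Atg9a, Atg4b, Optn and Atp6v1g3, and not for Rb1cc1, Atg16l1 and Atp6v1h. The 250 bases before the RefSeq start of transcription are shown for these 4, with each CG dinucleotide in capitals. They differ widely in these, and only Atp6v1g3 had no WT reads.
Atg9a: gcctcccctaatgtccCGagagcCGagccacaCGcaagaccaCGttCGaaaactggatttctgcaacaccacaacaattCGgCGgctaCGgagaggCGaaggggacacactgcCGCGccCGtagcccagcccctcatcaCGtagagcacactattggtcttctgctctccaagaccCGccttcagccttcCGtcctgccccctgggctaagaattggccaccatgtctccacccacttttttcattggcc
Atg4b: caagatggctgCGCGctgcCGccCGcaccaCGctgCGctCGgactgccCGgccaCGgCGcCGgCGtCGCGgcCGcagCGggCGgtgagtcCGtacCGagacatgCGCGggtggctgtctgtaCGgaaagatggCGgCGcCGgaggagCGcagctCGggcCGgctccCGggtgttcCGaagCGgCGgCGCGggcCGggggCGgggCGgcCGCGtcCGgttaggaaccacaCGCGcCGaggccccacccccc
Optn: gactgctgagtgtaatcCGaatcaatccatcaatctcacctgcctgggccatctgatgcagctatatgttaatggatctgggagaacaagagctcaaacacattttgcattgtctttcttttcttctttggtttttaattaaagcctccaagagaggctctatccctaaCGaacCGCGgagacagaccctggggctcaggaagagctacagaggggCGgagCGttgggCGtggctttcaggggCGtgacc
Atp6v1g3: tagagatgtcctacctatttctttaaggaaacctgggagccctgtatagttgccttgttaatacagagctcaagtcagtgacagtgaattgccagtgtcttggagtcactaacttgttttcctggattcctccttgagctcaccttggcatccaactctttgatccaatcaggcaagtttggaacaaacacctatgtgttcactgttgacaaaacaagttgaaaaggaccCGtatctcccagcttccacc

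The Atg4b window (chr1:93754655-93754904, plus strand) held 43 CG dinucleotides, more than 99.3% of the 32851 RefSeq promoter windows of this length. The window of Optn (chr2:5064118-5064367, minus strand) held 8 and that of Atg9a (chr1:75192011-75192260, minus strand) 15. The RefSeq starts differ from the GENCODE starts for some genes. By the GENCODE positions above, the Atg4b window lies inside the gene and the Atg9a window partly so. The window of Atp6v1g3 (chr1:138273488-138273737, plus strand) held 1, against a median of 6 over all windows. On both strands, none of the 4 windows matched TGATGNAA, a short form of the C/EBP-ATF response element that ATF4 binds, or TCACGTGA, the core of the CLEAR element bound by the lysosomal regulator TFEB, or CACGTG, which lies within the latter. Of all windows 3.45%, 0.785% and 6.02% matched these. No match says only that these letters are not in this window.

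Outside the 7 genes, the CLEAR core was found before 2 of the 9 other autophagy and lysosome genes with a RefSeq promoter, Stx6 and Retreg2. It is shown in capitals in the 250 bases before each start (chr1:155158453-155158702 and chr1:75142536-75142785, both plus strand).
Stx6: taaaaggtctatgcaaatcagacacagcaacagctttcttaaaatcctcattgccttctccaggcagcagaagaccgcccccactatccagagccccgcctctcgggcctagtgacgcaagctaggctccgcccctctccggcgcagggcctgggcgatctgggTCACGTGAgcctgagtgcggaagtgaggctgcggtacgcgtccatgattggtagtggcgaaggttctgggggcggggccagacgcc
Retreg2: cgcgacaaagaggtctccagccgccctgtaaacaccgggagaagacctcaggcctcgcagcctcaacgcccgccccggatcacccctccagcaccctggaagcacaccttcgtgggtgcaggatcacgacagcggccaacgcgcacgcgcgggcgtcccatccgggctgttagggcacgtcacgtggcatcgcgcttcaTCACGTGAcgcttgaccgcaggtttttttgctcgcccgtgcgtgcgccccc

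In the ATF4 KO libraries the 7 genes together gave 5 reads, where 18.6 were expected over the pair from the WT levels and the size factors. Atg4b gave 3 of these, Rb1cc1 and Atg16l1 1 each, and Atg9a, Optn and Atp6v1h none. On the deposited scale, 3 of the 6 tested genes were lower in ATF4 KO by limma (adjusted p under 0.05) and none was higher, beside 22.4% lower and 24.6% higher among the 1199 tested genes. The higher calls include genes with a low WT mean and 0 ATF4 KO reads, some raised by the shrinkage by only 0.02, so that share is not one of measured increases. With a lowest value of 3, which all 6 genes pass, 240 of 670 tested genes were lower and 15 higher. The 3 lower genes were those with 0 reads in both ATF4 KO libraries, as were 56.5% of all tested genes. Their ATF4 KO values were set by the shrinkage, so their small standard errors and p-values reflect no measured spread between the ATF4 KO libraries. The median difference was -1.17 over the 6 genes and 0.02 over all tested genes. Both ATF4 KO libraries lay below both WT libraries for 5 of the 6 genes, all but Rb1cc1, and for 40.7% of the tested genes.

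**Figure D2:**
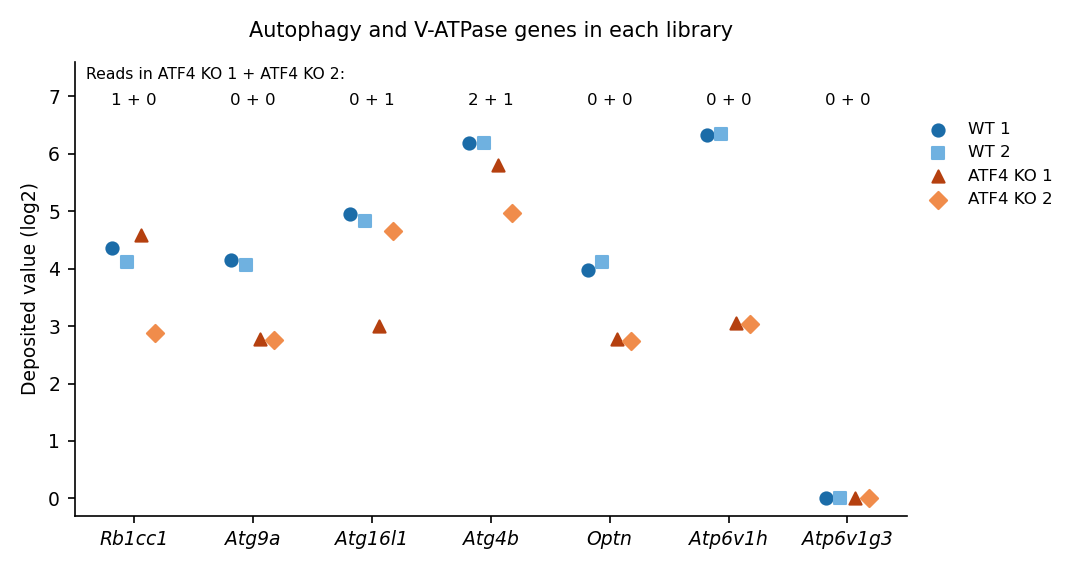
Deposited log2 values (vertical axis) of the 7 genes in WT 1, WT 2, ATF4 KO 1 and ATF4 KO 2, with the reads of the 2 ATF4 KO libraries printed above each gene. Genes with 0 reads in a library, such as Optn at 2.77 and 2.74 in ATF4 KO, sit at the value that the shrinkage gives them.

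Of the genes that start the autophagosome, Rb1cc1 overlapped between the genotypes. It was at 4.36 and 4.12 in WT, 4.59 in ATF4 KO 1, where it had 1 read, and 2.88 in ATF4 KO 2, where it had none. A single read thus placed it above both WT libraries, and its absence below them. By limma Rb1cc1 differed by -0.51 (standard error 0.72, adjusted p = 0.586). Leaving out ATF4 KO 1 gave -1.36, which passed, and leaving out ATF4 KO 2 gave 0.35; in such fits the spread comes from WT alone, and the ATF4 KO library left is assumed to vary like WT. The 1 read compares with 1.43 expected, a ratio of 0.697 with an exact 95% Poisson interval from 0.0177 to 3.89.

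Atg9a had values of 4.15 and 4.06 in WT against 2.78 and 2.75 in ATF4 KO, and the genotypes did not overlap. It was lower by limma (difference -1.34, standard error 0.07, adjusted p = 0.00233). It had 0 reads in both ATF4 KO libraries, but only 1.44 were expected over the pair. As a count of 0 allows up to 3 reads, the depth was too low for the reads themselves to show a decrease of Atg9a.

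The genes of ATG8 conjugation did not pass the test. Atg16l1 was at 4.95 and 4.82 in WT, at 3.0 in ATF4 KO 1 without a read and at 4.66 in ATF4 KO 2 with 1 read. Both ATF4 KO values lay below WT, but their own gap was larger than that between ATF4 KO 2 and WT. By limma Atg16l1 differed by -1.06 (standard error 0.70, adjusted p = 0.309), and the ratio of 1 read to the 2.28 expected was 0.438 (exact 95% Poisson interval 0.0111 to 2.44). The difference was -1.88 without ATF4 KO 2, which held the 1 read, and -0.23 without ATF4 KO 1. In each of these fits the spread comes from WT alone.

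Atg4b alone among the 7 had reads in each ATF4 KO library, 2 in the first and 1 in the second. Its value was 6.18 in each WT library and 5.80 and 4.97 in ATF4 KO, so the genotypes did not overlap. Its difference of -0.80 (standard error 0.47) missed the threshold by limma (adjusted p = 0.269). The difference of Atg4b was -1.21 without ATF4 KO 1 and -0.39 without ATF4 KO 2. In those fits, too, the spread comes from WT alone, where the 2 values were almost equal, and none from ATF4 KO. Against 5.45 expected reads the ratio was 0.550, with an exact 95% Poisson interval from 0.113 to 1.61 that includes 1.

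Optn resembled Atg9a. Its WT values of 3.98 and 4.11 lay above the ATF4 KO values of 2.77 and 2.74, and it was lower by limma (difference -1.29, standard error 0.08, adjusted p = 0.00277). It had 0 ATF4 KO reads against 1.39 expected, too few for the reads themselves to show a decrease of Optn. Fitted by voom, limma's method for read counts, to the recovered reads, Optn was no longer called (-0.47, adjusted p = 0.0695). In that fit Atp6v1h (-2.72, adjusted p = 0.0110) and Atg9a (-0.53, adjusted p = 0.0478) were lower, as were 23.1% of the 663 genes tested by it. In that fit, too, 0 reads enter as a number that the method sets.

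Atp6v1h had the largest difference of the 7 genes. Its WT values, 6.32 and 6.34, were far above those of ATF4 KO, 3.06 and 3.03. By limma it was lower (difference -3.28, standard error 0.21, adjusted p = 0.00308). With 6.58 reads expected and none found, it was the only one of the 3 genes with 0 ATF4 KO reads for which the depth gave a bound. By counting error only, Atp6v1h was at least 2.19-fold lower.

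Both bounds rest on the size factors. Over the 395 tested genes with WT means from 3.5 to 6.5 and recovered reads, a range that holds all 6 expressed genes, 411 ATF4 KO reads were recovered, 36.4% of the 1130 expected. This yield is a low estimate, because 30 further genes of that range, without recovered reads, are not counted. The 6 genes together had 26.9% of their expected reads. At the lower yield 2.39 reads of Atp6v1h would be expected, too few for a bound below the WT level, so its decrease is not established. Of the 425 genes in that range of WT means, 47.1% had 0 reads in both ATF4 KO libraries, as did 3 of the 6. Between WT means of 3.5 and 4.5, where Optn, Atg9a and Rb1cc1 lie, the share was 68.7%, and between 5.5 and 6.5, where Atg4b and Atp6v1h lie, it was 27.6%.

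**Figure D3:**
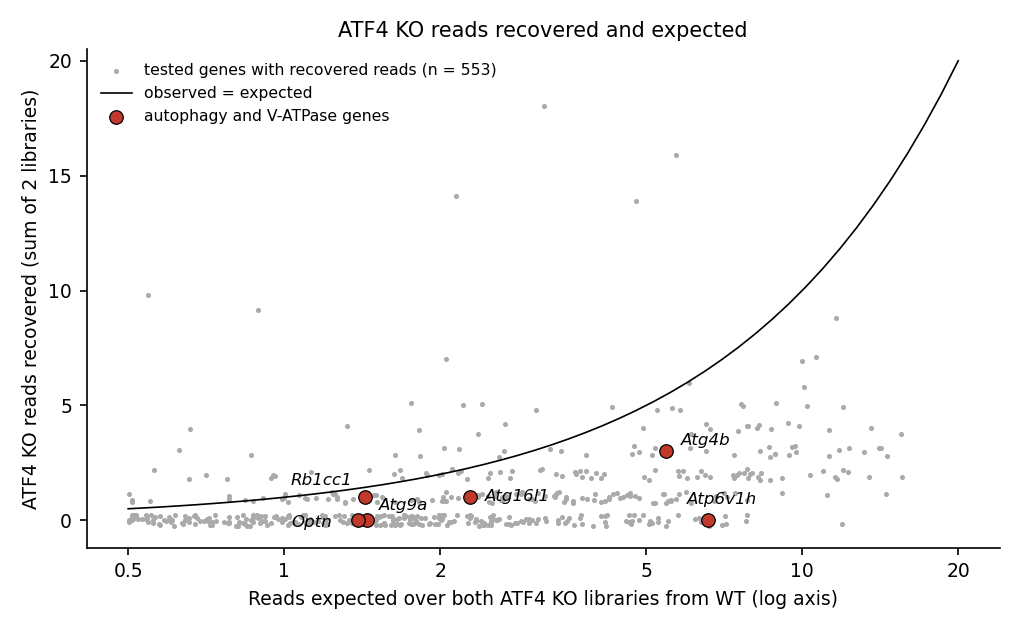
Reads recovered over both ATF4 KO libraries (vertical axis) against the reads expected from WT (log axis) for 553 tested genes with at least 0.5 expected reads (grey, spread vertically to separate points) and the 6 expressed autophagy and V-ATPase genes (red). All 6 lie below the line of equality, as do 502 of the 553.

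The sizes of the differences followed from the WT level and the reads. Genes without any ATF4 KO read lay on 1 narrow curve when the difference was set against the WT mean, because the shrinkage drew them from their own mean towards a constant (2.36 in ATF4 KO 1, 2.31 in ATF4 KO 2). Atp6v1h, Atg9a and Optn lay on it. The 8 other genes with 0 reads in both libraries and a WT mean within 0.1 of that of Atp6v1h differed by -3.36 to -3.21, and all 8 were called. The same held for 21 genes around Atg9a (-1.43 to -1.26) and 16 around Optn (-1.35 to -1.21). The 4 genes with the same reads as Rb1cc1 and a like WT mean differed by -0.57 to -0.44, and the 4 around Atg16l1 by -1.12 to -1.06. The 1 such gene for Atg4b differed by -0.72, against -0.80 for Atg4b itself. For all but Atg4b, the difference thus lay within the range of genes with the same reads and a like WT level.

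**Figure D4:**
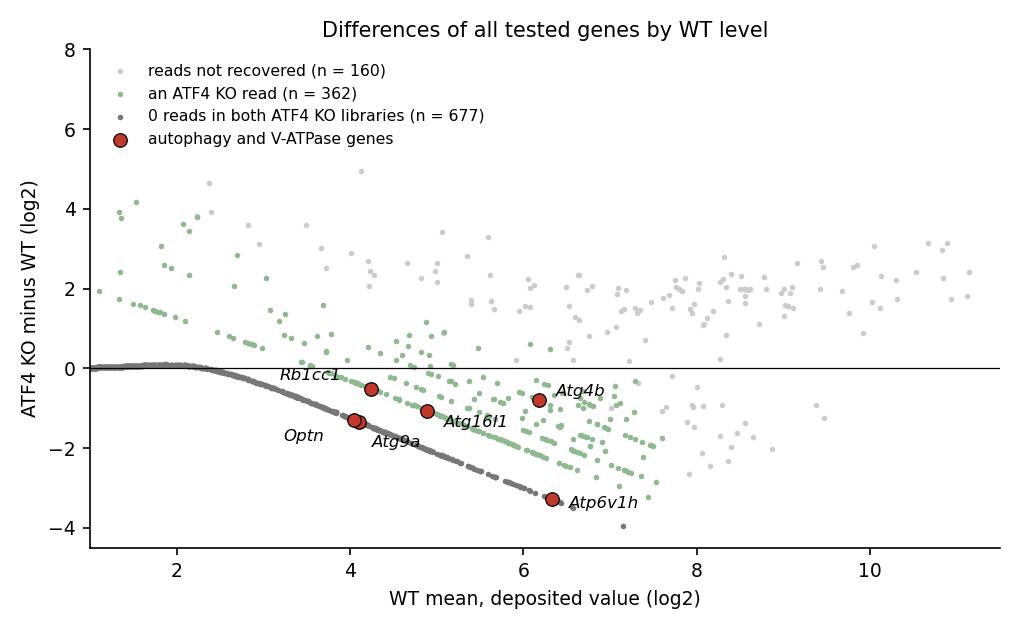
ATF4 KO minus WT (log2, deposited scale) against the WT mean (log2) for the tested genes, by whether their ATF4 KO reads were 0 in both libraries (dark grey), at least 1 (green) or not recovered (light grey), with the 6 autophagy and V-ATPase genes in red; 72 genes with a WT mean under 1 are not drawn. Atp6v1h, Atg9a and Optn lie on the curve of genes with 0 reads, and Rb1cc1 and Atg16l1 on the next band, of genes with 1 read.

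Of 207 further genes of autophagy and lysosomes, in 9 lists drawn up by function, 11 were in the table and 9 of these were tested. By limma 6 were lower in ATF4 KO and none was higher, beside 22.4% lower and 24.6% higher over all tested genes, or, with a lowest value of 3, 6 lower of the 8 then tested beside 240 lower and 15 higher of 670. The median difference of the 9 was -1.69, beside 0.02 over all tested genes, and 5 of the 9 had no ATF4 KO read, beside 56.5% of all. Here, too, no median was computed over genes of like WT level. The sialidase genes Neu2 and Neu4 were listed at 0 in all 4 libraries. No gene of the lists of PI3K complex proteins and of transcription factors was in the table, so Becn1 and Tfeb, for example, were not analysed here.

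The 2 of these genes with the highest WT level per kb both concern the proton pump or the lysosomal membrane. Ccdc115, an assembly factor of the V-ATPase, was at 39.5 and 46.6 normalised reads per kb in the WT libraries and Tmem9, a lysosomal membrane protein, at 39.3 and 43.8, both above Atp6v1h. Much of that gap lies in the annotated exon lengths, 2.543 and 2.726 kb against 9.746 kb for Atp6v1h. Not divided by length, Ccdc115 had 101 and 119 normalised reads, Tmem9 107 and 120, and Atp6v1h 89.4 and 90.6. Ccdc115 and Tmem9 had 1 read each in each ATF4 KO library. Ccdc115 had log2 values of 6.58 and 6.79 in WT, against 5.02 and 4.98 in ATF4 KO, and was lower by limma (difference -1.69, standard error 0.34, adjusted p = 0.0380). Tmem9 had 6.66 and 6.81 in WT, against the same rounded values in ATF4 KO as Ccdc115, and was lower too (difference -1.73, standard error 0.34, adjusted p = 0.0348). The groups did not overlap for either gene.

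Those 2 calls did not hold under several alternatives. With the replicate number as a block the adjusted p was 0.225 for Ccdc115 and 0.220 for Tmem9, without WT 1 it was 0.766 for both, without WT 2 it was 0.815 and 0.803, and among genes with an ATF4 KO read it was 0.325 for both (limma). The 2 reads of Ccdc115 compare with 8.01 expected, a ratio of 0.250 with an exact 95% Poisson interval from 0.0302 to 0.902, and the 2 of Tmem9 with 8.28, a ratio of 0.241 (0.0292 to 0.872). At the yield of 36.4% the upper ends would be 2.48 and 2.40, but that yield was measured at WT means from 3.5 to 6.5, below those of these 2 genes, and was not computed at their level.

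The other 4 lower genes lacked any ATF4 KO read, so their ATF4 KO values, too, were set by the shrinkage. They were Abca2, a lipid transporter of endosomes and lysosomes (-2.14, standard error 0.19), Tmem63a, an ion channel found on lysosomes (-1.97, standard error 0.12), Ctse, the aspartic protease cathepsin E (-1.79, standard error 0.07), and Retreg2, a receptor for autophagy of the endoplasmic reticulum (-0.82, standard error 0.05). Between 0.961 reads for Retreg2 and 2.68 for Abca2 were expected over the pair, fewer than the 3 that a count of 0 allows. Stx6, a SNARE protein of membrane fusion between the Golgi and endosomes, was at 5.48 and 5.39 in WT, at 3.17 in ATF4 KO 1 without a read and at 6.16 in ATF4 KO 2 with 3 reads, where 3.25 were expected over the pair (adjusted p = 0.633 by limma). Rab7b, a small GTPase of late endosomes, differed by -0.61 (adjusted p = 0.0996 by limma). With no filter it passed (adjusted p = 0.0484 by limma on all 4 libraries). Its difference was -0.83 without WT 1 and -0.38 without WT 2. In those 2 fits the spread comes from ATF4 KO alone, where both values were set by the shrinkage. Slc11a1, the metal transporter of phagosomes and lysosomes, had WT values of 1.83 and 1.31 and ATF4 KO values of 3.97, with 1 read, and 2.33, without one, and did not pass (adjusted p = 0.219 by limma). Its difference was 1.58, or 2.40 without ATF4 KO 2 and 0.76 without ATF4 KO 1.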

How the data were processed

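The authors deposited 1 log2 value per gene and library. HISAT2 2.2.1, featureCounts, DESeq2 and GRCm38 are named, without roles, per the submitters' processing notes; the transform is not stated. The table ends in 1 incomplete line, which was dropped, leaving 4167 genes. The values met the equation of a regularised logarithm (a negative binomial fit with 1 shrunken term per library and fitted reads of at least 0.5). In 1399 genes the ATF4 KO values met it for 0 reads in both libraries with residuals up to 5.2e-12, and in no other gene below 0.037. ATF4 KO reads were recovered for 281 genes with 0 reads in 1 library (within 0.02 of whole numbers) and 88 with reads in both (within 0.05), and not for 160. WT size factors were chosen to make WT reads whole, which are given rounded, for WT means above 2. The recovery was tested on simulated data.

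The design allowed for log2 values, and limma 3.58.1 (R 4.3.3, statmod 1.5.0) was run on them unchanged, without a pseudocount, using a trended prior and robust estimation, for genes that reached a value of 1 in 2 or more libraries, with Benjamini-Hochberg adjustment and a threshold of 0.05. Libraries were grouped by their titles. Expected reads are the mean normalised WT reads times the summed ATF4 KO size factors. Exact Poisson intervals (scipy 1.17.1) and the limit of 3 reads reflect counting error alone, since PCR copies of 1 molecule are not independent. Lengths are unions of GENCODE M21 exons. Named genes are the 7 genes and every tested gene of the fixed lists. The genes and lists were chosen with earlier results of these data known. Alternatives were no filter, a lowest value of 3, no trend, no robust estimation, a replicate block, each library left out, genes with an ATF4 KO read only, voom on recovered reads, and a shorter promoter window. The result of 1 marker gene is not reported here.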

Additional observations from a re-analysis of the deposited data

How the results depend on the processing

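The 3 calls among the 6 tested genes, Atp6v1h, Atg9a and Optn, were also made with no filter, a lowest value of 3, no trend, no robust estimation, the replicate block and without either WT library, and with voom 2 were. Leaving out 1 library gave 3 to 5 calls among the 6 and 5 to 8 among the 9 other pathway genes (6 with all libraries). Among genes with an ATF4 KO read alone, limma called 0 of 3 and 0 of 4 of them (0 and 2 at an unadjusted p under 0.05). Rb1cc1 was at -1.36 without ATF4 KO 1 but turned to 0.35 without ATF4 KO 2 and to 0.28 with voom, Stx6 was at -2.26 without ATF4 KO 2 but turned to 0.72 without ATF4 KO 1, and Retreg2 turned to 0.06 and Rab7b to 0.34 with voom; the cause was not tested. Over all genes 563 were called (268 lower, 295 higher), against 1315 with no filter, 255 (240 lower) with a lowest value of 3, 291 (263 lower) with no trend, 276 (153 lower) with voom on fewer genes, 0 of 522 genes with an ATF4 KO read (78 at an unadjusted p under 0.05), and 634 to 884 with 1 library left out. With the replicate block 510 were called, and beyond Ccdc115 and Tmem9 it changed no call of the named genes. The deviations of libraries with the same number had a correlation of -0.076 over 1199 genes. For 56.5% of these the ATF4 KO values were set by the shrinkage, so this cannot show whether the numbers pair the libraries. With 2 libraries a genotype, the smallest two-sided p of an exact permutation test is 0.333.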

Other observations

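Of the genes that overlap the 7 genes on the opposite strand, Ankzf1, which shares 46 exon bases with Atg9a, was at 8.34 in both WT libraries, at 8.22 in ATF4 KO 1 and at 12.54 in ATF4 KO 2, and its reads were not recovered. Thap4, which overlaps Atg4b without sharing an exon base, had values of 4.12 and 4.23 in WT, against 2.79 and 2.76 in ATF4 KO, where it had 0 reads.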
